A study of Homo sapiens with 9 samples.

Results

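Transcript levels of CPA4, LXN (which encodes latexin), CPD, CPE and CPM were followed across 9 RNA sequencing libraries of the established human pancreatic carcinoma line PANC-1. These 5 genes, out of 36753 in the deposited data, were chosen from results already known for the same libraries. CPA4 was taken because it had the highest rise after SIRT6 knockdown, latexin because it inhibits enzymes of the CPA4 kind, and CPD, CPE and CPM as carboxypeptidases with other sites of action. For that reason the levels of the 5 genes are given as a description, with no test in any comparison. The libraries were made 48 hours after transfection with a control siRNA (short interfering RNA), with siSIRT6 against SIRT6, or with siKDM5C against KDM5C, and there were 3 libraries of each. No other agent, allele or treatment is named for any group. SIRT6 is a nuclear deacylase of histones that uses NAD, and KDM5C is a demethylase of lysine 4 of histone H3. How many siRNAs were used, and their sequences, is not given in these sources. Whether the replicates came from separate cultures is not stated, so every SD and p-value here measures a spread that may be technical.

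Metallocarboxypeptidases hold a zinc ion and remove single amino acids from the C-terminal end of proteins and peptides. Enzymes of the A/B subfamily, which includes the digestive enzymes of the pancreas, are made as inactive proenzymes; CPA4 is a secreted member that prefers hydrophobic residues. Latexin binds and inhibits A/B enzymes. Members of the N/E subfamily, such as CPD, CPM and CPE, remove basic residues and are not latexin targets: CPD works in the trans-Golgi network, CPM is anchored to the cell surface, and CPE trims peptide hormones in secretory granules.

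On GRCh38 with GENCODE release 29, CPA4 (ENSG00000128510) lies on the forward strand of chromosome 7 at 130293134 to 130324180, with 12 annotated transcripts of which 7 are coding. LXN (ENSG00000079257) lies on the reverse strand of chromosome 3 at 158645822 to 158672693, inside the body of GFM1 on the opposite strand, with which it shares 45 exon bases. CPD (ENSG00000108582) lies on the forward strand of chromosome 17 at 30378905 to 30469989. CPE (ENSG00000109472) lies on the forward strand of chromosome 4 at 165361194 to 165498320. CPM (ENSG00000135678) lies on the reverse strand of chromosome 12 at 68842197 to 68971570. It shares 133 exon bases with MDM2 and 133 with a pseudogene, both on the opposite strand. Where reads fell on shared bases, they cannot be assigned to 1 gene unless the counting used strand, on which the sources used here give nothing. The length behind the LXN values was 1459 bases, which is the exon union of 1504 less the 45 shared bases, while that behind CPM was its whole exon union of 7535.

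The 250 bases before the RefSeq start of CPA4, LXN and CPD are shown because the levels of these genes differed most between the groups. They are RefSeq sequences on GRCh38.p14, read 5′ to 3′ on the gene's strand, and end at the base before the start. The windows are chr7:130292911-130293160 (forward strand), chr3:158672649-158672898 (reverse strand) and chr17:30378677-30378926 (forward strand). These RefSeq starts lie inside the GENCODE genes as placed above, so the last bases of each window belong to the GENCODE gene body. Capitals mark matches, on either strand, to the TATA box (TATAAA), the CCAAT box (CCAAT), the GC box (GGGCGG) and the AP-1 site (TGANTCA), motifs that were chosen after the promoters were seen.
CPA4: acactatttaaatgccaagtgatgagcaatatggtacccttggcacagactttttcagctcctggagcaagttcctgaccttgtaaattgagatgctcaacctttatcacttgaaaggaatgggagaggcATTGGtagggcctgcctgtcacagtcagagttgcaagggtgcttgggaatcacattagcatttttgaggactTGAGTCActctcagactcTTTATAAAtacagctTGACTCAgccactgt
LXN: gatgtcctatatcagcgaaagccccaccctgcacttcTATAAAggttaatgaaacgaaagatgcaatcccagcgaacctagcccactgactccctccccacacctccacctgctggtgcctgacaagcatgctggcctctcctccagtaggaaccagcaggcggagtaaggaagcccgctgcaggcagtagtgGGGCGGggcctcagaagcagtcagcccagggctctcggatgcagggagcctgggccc
CPD: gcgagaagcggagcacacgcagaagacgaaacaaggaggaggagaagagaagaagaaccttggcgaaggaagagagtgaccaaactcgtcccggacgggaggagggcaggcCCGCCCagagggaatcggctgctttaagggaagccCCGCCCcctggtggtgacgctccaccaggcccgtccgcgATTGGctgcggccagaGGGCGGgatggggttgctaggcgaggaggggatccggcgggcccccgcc
In the CPA4 window, TATAAA stood 28 to 23 bases before the RefSeq start, overlapped by a reverse-strand match at 30 to 25. The GENCODE start of CPA4 falls within this TATAAA, so bases nearer to the RefSeq start lie inside the GENCODE gene body. The same window held the AP-1 letters at 48 to 42 and at 15 to 9 bases before the start, and a reverse-strand CCAAT box at 120 to 116. Its GC content was 44.4%, against a median of 58.0% over 35116 RefSeq promoters of the same length. The LXN window had a GC content of 60.0%, a TATAAA at 213 to 208 and a GC box at 57 to 52. CPD had no TATA box in its window, but had 3 GC boxes, a reverse-strand CCAAT box at 65 to 61 and a GC content of 66.8%. The table lists 2 starts for CPD and 3 for CPM, of which the first was used. The CPM window held 5 GC boxes, and the CPE window held none of these motifs. Both of these windows lie wholly inside the GENCODE gene bodies, away from the gene ends given above. A sterol response element (TCACNCCAC) was looked for as well and was in none of the 5 windows. Of all 35116 promoters, 10.7% held TATAAA, 32.0% CCAAT, 42.6% GGGCGG, 6.57% TGANTCA and 0.883% TCACNCCAC, and 0.402% held the AP-1 letters at least 2 times. A match of letters is a description of the window and not a measured binding site.

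Levels are in FPKM, fragments per kilobase of gene length after scaling for library depth, which allows genes to be set beside each other per length. The reads in genes per library, as implied by the steps of the FPKM values, ranged from 18201413 to 26910441, with siSIRT6 replicate 3 the deepest. SIRT6 itself was at 5.17 to 7.17 FPKM in control and 0.487 to 0.795 in siSIRT6, which is 9.66% of the control mean. KDM5C was at 18.0 to 18.8 FPKM in control and 3.31 to 3.89 in siKDM5C, which is 19.6% of the control mean. In siKDM5C, SIRT6 was at 4.6 to 5.39 FPKM, 81.2% of its control mean and overlapping control. In siSIRT6, KDM5C was at 17.6 to 17.9 FPKM, 96.7% of its control mean. Of the 7 duct epithelium markers written down, 6 reached 1 FPKM in at least 3 libraries. Of the marker genes with values, the 3 acinar and 3 mast cell ones were all under 1 FPKM. On the macrophage and leukocyte list PTPRC, which marks leukocytes, CD163 and CSF1R were under 1 FPKM, whereas CD14 was at 1.6 to 3.23 and CD68 at 34.0 to 91.2. On the fibroblast list COL1A1 alone reached 1 FPKM, DCN stayed at or under 0.00809 and COL1A2 at or under 0.0191, and the sum of the list was 15.6 to 16.6 FPKM in control, 40.9 to 42.9 in siSIRT6 and 15.0 to 17.0 in siKDM5C. The duct sum was 1140 to 1200, 1460 to 1570 and 765 to 919 FPKM in the same order, carried by KRT8, KRT18 and KRT19. KRT7 had means of 6.38, 4.40 and 3.91 FPKM, EPCAM 0.988, 1.56 and 2.93 and SOX9 58.0, 57.3 and 63.6, so the list did not move as 1. The endocrine sum, nearly all SYP, was 1.93 to 2.25, 1.85 to 2.06 and 0.767 to 1.54 FPKM. That of the macrophage and leukocyte list, mostly CD68, was 43.4 to 57.6, 35.9 to 38.8 and 72.3 to 93.1. CD14 had means of 2.96, 1.7 and 1.95 FPKM, so in siKDM5C it was below control where the sum was above it. The part of these marker lists in the results below was not tested. In bulk RNA, fewer cells with a transcript and less of it per cell cannot be told apart.

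CPA4 was a low transcript in the control cells and stood far higher after both knockdowns, most of all after siSIRT6. It was at 0.833, 1.34 and 1.04 FPKM in the control libraries, from 60, 101 and 77 reads. In siSIRT6 it was at 28.8, 28.5 and 27.9 FPKM, from 2246, 2182 and 2969 reads. In siKDM5C it was at 8.02, 8.62 and 8.44 FPKM, from 606, 631 and 777 reads. The 3 groups did not overlap at any point, and both knockdowns stood above every control library. The means were 1.07 ± 0.254, 28.4 ± 0.495 and 8.36 ± 0.308 FPKM (SD, n = 3). Among the 16135 tested genes (those that reached 1 FPKM in 3 or more libraries), the CPA4 level lay at percentile 6.33 in control, 88.3 in siSIRT6 and 61.9 in siKDM5C. It reached 1 FPKM in only 2 control libraries, so it entered the tested genes through the knockdowns. The siSIRT6 mean was 26.5 times the control mean, a difference of 3.84 on the log2(FPKM + 1) scale (SE 0.083), and no other tested gene had a higher difference. The siKDM5C mean was 7.80 times the control mean, a log2 difference of 2.18 (SE 0.083), with 13 genes higher. Between the knockdowns the ratio was 3.40, a log2 difference of 1.65 (SE 0.083), with 18 genes higher. Because the pseudocount of 1 is as large as the control level, the log2 difference depends on it: with a pseudocount of 0.1 the differences were 4.63 for siSIRT6 and 2.87 for siKDM5C.

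Latexin, the inhibitor, had a high level in control cells and stood above it in one knockdown and below it in the other. It was at 32.1, 30.3 and 25.1 FPKM in control, 60.9, 63.0 and 61.7 in siSIRT6, and 15.5, 19.8 and 18.3 in siKDM5C. All 3 siSIRT6 libraries were above the highest control library and all 3 siKDM5C libraries were below the lowest. The means were 29.2 ± 3.63, 61.9 ± 1.1 and 17.9 ± 2.15 FPKM (SD, n = 3), at percentiles 88.7, 95.0 and 80.8 of the tested genes. The siSIRT6 mean was 2.12 times the control mean (log2 difference 1.07, SE 0.10), with 274 genes showing a higher difference. In siKDM5C the mean was 0.612 times the control mean (log2 difference -0.68, SE 0.10), with 980 genes lower. Set against each other, the knockdowns differed 3.46-fold (log2 difference 1.74, SE 0.10), with 12 genes higher.

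CPD, the carboxypeptidase of the trans-Golgi network, had the same order of groups as latexin, siSIRT6 above control above siKDM5C. Its levels were 9.35, 9.41 and 7.96 FPKM in control, 11.6, 11.1 and 11.2 in siSIRT6, and 4.34, 5.06 and 3.85 in siKDM5C. No 2 groups overlapped, though the gap between control and siSIRT6 was narrow, at 1.70 FPKM. With means of 8.91 ± 0.818, 11.3 ± 0.266 and 4.42 ± 0.61 FPKM (SD, n = 3), CPD was 1.27 times control in siSIRT6 and 0.496 times control in siKDM5C. The log2 differences were 0.32 and -0.87 (SE 0.09 for each). For siSIRT6 against control, 3121 of the tested genes had a higher difference than CPD. For siKDM5C, 515 had a lower one. Between the knockdowns CPD differed 2.56-fold (log2 difference 1.19, SE 0.09).

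CPM, which releases C-terminal arginine and lysine at the cell surface, was a low transcript throughout. It was at 1.30, 1.21 and 1.06 FPKM in control, 1.83, 1.50 and 1.57 in siSIRT6, and 1.14, 1.68 and 1.25 in siKDM5C, from 149 to 318 reads per library. The siSIRT6 libraries were above all control libraries by a gap of 0.207 FPKM, whereas the siKDM5C libraries overlapped both other groups. The means were 1.19 ± 0.121, 1.64 ± 0.175 and 1.36 ± 0.285 FPKM (SD, n = 3). CPM was 1.38 times control in siSIRT6 (log2 difference 0.27, SE 0.10) and 1.14 times in siKDM5C (0.10, SE 0.10). Without siKDM5C replicate 2, the highest of its group, the log2 difference from control was 0.0043 in place of 0.10, and that between the knockdowns 0.26 in place of 0.17. Fitted by limma-voom on recovered reads, the siSIRT6 difference was 0.46.

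CPE, the enzyme of hormone granules, was near the limit of detection and below the minimum for testing. It was at 0.247, 0.353 and 0.172 FPKM in control from 14, 21 and 10 reads. In siSIRT6 it was at 0.326, 0.432 and 0.417 FPKM from 20, 26 and 35 reads, and in siKDM5C at 0.151, 0.173 and 0.276 from 9, 10 and 20 reads. A count of 0 would have allowed 0.0357 to 0.0528 FPKM (3 reads, counting error only), so CPE was detected in all 9 libraries. Both knockdowns overlapped the control libraries, and siSIRT6 was above siKDM5C by a gap of 0.0504 FPKM. The means were 0.257 ± 0.0911, 0.392 ± 0.0573 and 0.200 ± 0.0664 FPKM (SD, n = 3).

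**Figure D1:**
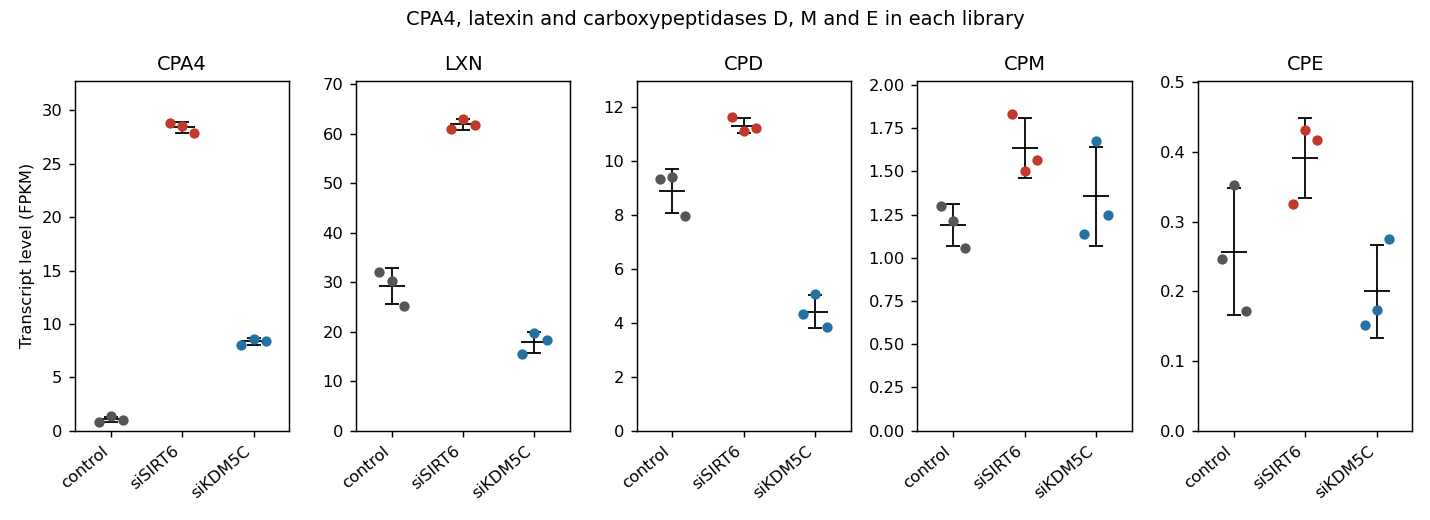
FPKM of CPA4, LXN, CPD, CPM and CPE (1 panel each, with its own axis from 0) in the 3 control, 3 siSIRT6 and 3 siKDM5C libraries; points are libraries and bars the mean and SD. CPA4 stood at 27.9 to 28.8 FPKM in siSIRT6 and 0.833 to 1.34 in control, while LXN and CPD were highest in siSIRT6 and lowest in siKDM5C.

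Counted over all 5 genes, siSIRT6 and control did not overlap for 4, all higher in siSIRT6, with CPE the exception. Of the 16135 tested genes, 65.5% did not overlap in that comparison, so non-overlap was common. For siKDM5C against control, 3 of 5 did not overlap (CPA4 higher, LXN and CPD lower), beside 55.7% of the tested genes. For siSIRT6 against siKDM5C, 4 of 5 did not overlap, all higher in siSIRT6, among them CPE, which was below the minimum for testing. Of the 4 tested members, 3 did not overlap, beside 51.7% of the tested genes. The 4 tested members had median log2 differences of 0.69, -0.29 and 1.42 in the 3 comparisons, where the medians over all tested genes were -0.05, -0.02 and -0.02. The members were chosen with these values known, so nothing is read from the counts, and the 2 comparisons with control share their control libraries.

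**Figure D2:**
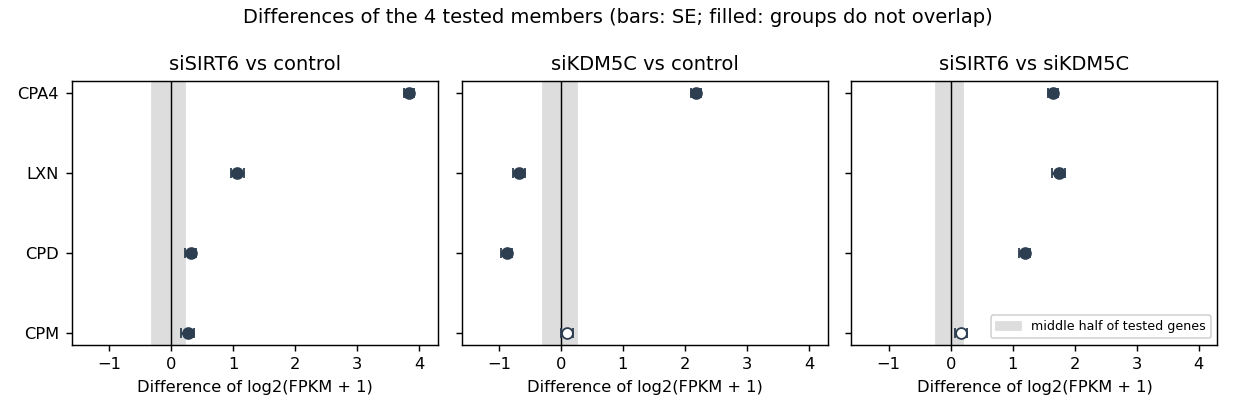
Difference of log2(FPKM + 1) with its SE for the 4 tested members in each of the 3 comparisons; filled points mark groups that do not overlap, and the grey band runs from the lower to the upper quartile of all tested genes. CPA4 stands at 3.84 and 2.18 against control, and LXN and CPD change side between siSIRT6 and siKDM5C.

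Added up over 15 genes of zinc carboxypeptidases of the A/B and N/E subfamilies, transcript levels came to 11.7 ± 1.1 FPKM (SD, n = 3) in control, 42.1 ± 0.819 in siSIRT6 and 14.7 ± 1.17 in siKDM5C. CPD made up 76.1% ± 1.2 of that sum in control, 26.9% ± 0.361 in siSIRT6 and 30.1% ± 2.54 in siKDM5C. CPA4 made up 9.18% ± 2.02, 67.5% ± 0.513 and 57.2% ± 2.87 (SD, n = 3). The leading transcript of the sum was therefore CPD in control and CPA4 in both knockdowns. The sum was 13.8 to 16.0 FPKM in the siKDM5C libraries and 10.5 to 12.6 in the control libraries, so the groups did not overlap, with CPA4 higher and CPD lower in siKDM5C.

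The ratio of the inhibitor to CPA4 was 38.6, 22.6 and 24.1 in the control libraries. It was 2.11, 2.21 and 2.21 in siSIRT6 and 1.94, 2.30 and 2.16 in siKDM5C. The latexin level thus exceeded the CPA4 level in all 9 libraries. The 2 knockdowns overlapped, with mean ratios of 2.18 ± 0.0577 and 2.13 ± 0.181 (SD, n = 3), although CPA4 itself differed 3.40-fold between them. The control mean was 28.4 ± 8.84. These are ratios of transcripts; neither the proteins nor the activation of the CPA4 proenzyme was measured.

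**Figure D3:**
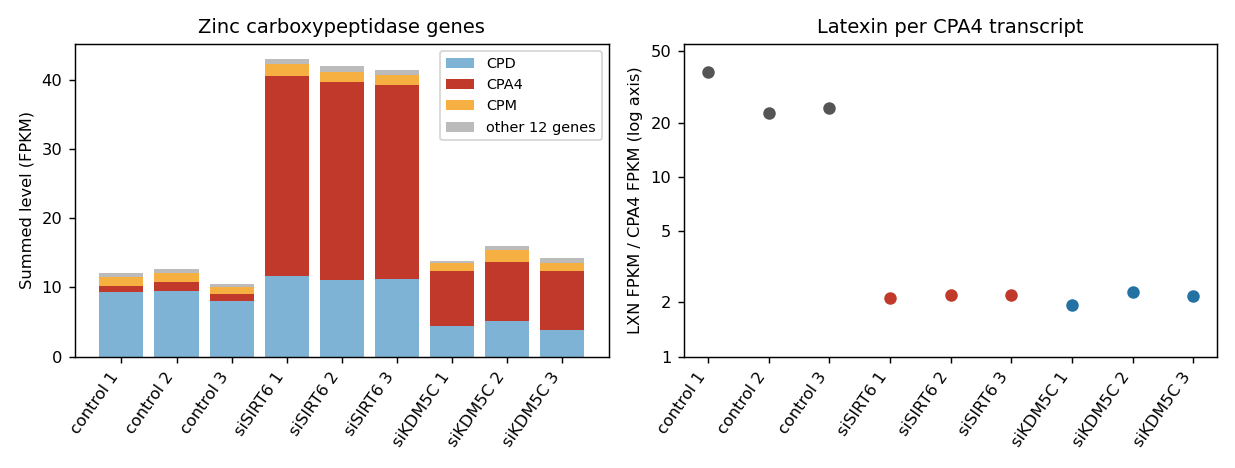
Left, summed FPKM of 15 zinc carboxypeptidase genes by library, stacked into CPA4, CPD, CPM and the other 12 genes; right, the ratio of LXN to CPA4 FPKM per library on a log axis. The ratio lies between 22.6 and 38.6 in control and between 1.94 and 2.30 in the knockdowns.

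Across the 9 libraries, log2 levels of LXN and CPD were the most alike of the 10 pairs of members (Pearson's r 0.915), followed by LXN and CPE (0.835) and CPA4 and CPM (0.728). CPA4 and LXN had an r of 0.534 and CPA4 and CPD one of 0.178. The 9 libraries form 3 groups of 3, so these values describe the order of 3 groups more than 9 points. Among all tested genes with a symbol, the patterns most like CPA4 were those of STAC (r 0.998), MICAL2 (0.996), DPYD (0.996), COL5A1 (0.995) and PLEKHA7 (0.995). COL5A1, a collagen chain, had means of 5.20 ± 0.219, 24.5 ± 0.674 and 14.1 ± 0.722 FPKM in control, siSIRT6 and siKDM5C. MICAL2, an enzyme that oxidises actin, had 4.59 ± 0.17, 13.8 ± 0.363 and 8.12 ± 0.198 FPKM (SD, n = 3).

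For LXN the nearest patterns were those of NET1 (r 0.995), KRT80 (0.994), CLDN1 (0.994), PCDH7 (0.993) and TBC1D1 (0.993). CLDN1, a tight junction protein, had means of 34.9 ± 2.41, 67.7 ± 0.776 and 22.8 ± 1.72 FPKM. For CPD they were MSMO1 (r 0.998), TRIM2 (0.997), SLC12A2 (0.997), MFSD14B (0.996) and PSMD11 (0.995). MSMO1, an enzyme of cholesterol synthesis, had means of 50.9 ± 6.05, 68.7 ± 1.07 and 20.9 ± 3.59 FPKM (SD, n = 3). CPM was most like MRPS27 (0.968), at a lower r than the first genes of CPA4, LXN and CPD.

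Of 56 related genes written down in 8 lists by family and biochemical role, 52 had values and 20 passed the minimum for testing. By limma with Benjamini-Hochberg adjustment over all 16135 genes, 10 of the 20 rose after siSIRT6, 3 fell and 7 did not pass the threshold of 0.05. Over all tested genes, 23.9% rose and 26.9% fell in that comparison. After siKDM5C, 9 rose, 4 fell and 7 did not pass, beside 25.6% and 25.9% of all tested genes. Between the knockdowns, 5 were higher and 1 lower in siSIRT6 and 14 did not pass, beside 18.6% and 21.3%. The median log2 differences of the 20 genes were 0.18, 0.15 and 0.07. Of the 20, SCG2, CHGB, MME and VASH1 reached the minimum only with their knockdown libraries, so the counts of rises are not independent of it.

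The digestive and mast cell enzymes nearest to CPA4 in the family were almost silent. None of the 6 A/B enzymes with values was tested: CPA1 had 1 read in a single library and 0 in the other 8, and CPA5 reached 0.0686 FPKM. For CPA3 and CPB1, also on that list, no values were found under those names. Among other N/E enzymes, the 5 with values (CPN1, CPZ, CPXM1, CPXM2 and AEBP1) stayed at or under 0.239 FPKM. RARRES1, the nearest relative of latexin and its neighbour on chromosome 3, stayed at or under 0.0812 FPKM.

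The tubulin carboxypeptidases, which cut tyrosine or glutamate from the tail of tubulin, were lower where they passed the test against control. On this list, which counts the partner protein SVBP, 3 of 6 tested fell after siSIRT6 and none rose, beside 26.9% of all tested genes that fell. After siKDM5C 3 of 6 fell and none rose, beside 25.9%. AGBL5 and VASH1 passed in neither comparison. Their log2 differences were above 0, at 0.199 and 0.183 in siSIRT6 and 0.0164 and 0.106 in siKDM5C. MATCAP2 went from 9.96 ± 0.416 FPKM in control to 6.35 ± 0.29 in siSIRT6 and 7.66 ± 0.502 in siKDM5C (SD, n = 3), with limma adjusted p-values of 9.5e-05 and 0.00167. MATCAP1, which also removes tubulin tyrosine, fell from 2.83 ± 0.288 to 1.78 ± 0.29 FPKM in siSIRT6 (limma adjusted p = 0.0091) and was at 2.13 ± 0.398 in siKDM5C (adjusted p = 0.0569). AGTPBP1, a deglutamylase, fell from 5.33 ± 0.449 to 4.40 ± 0.196 FPKM in siSIRT6 (limma adjusted p = 0.0496) and to 4.06 ± 0.508 in siKDM5C (0.0114). The first of these calls did not hold with a pseudocount of 0.1 (adjusted p = 0.0516) or when any of the 6 control and siSIRT6 libraries or siKDM5C replicate 1 was left out (0.0533 to 0.158). SVBP, the partner of the vasohibins, was at 3.99 ± 0.221 FPKM in control and 4.13 ± 0.526 in siSIRT6, and fell to 2.79 ± 0.2 in siKDM5C (limma adjusted p = 0.00423). Between the knockdowns SVBP was higher and MATCAP2 lower in siSIRT6 (limma adjusted p-values 0.00394 and 0.0141). The MATCAP2 call was lost without siSIRT6 replicate 2 (0.055) or 3 (0.0571).

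Of the carboxypeptidases of other families, 4 of 6 tested rose after siSIRT6 and none fell, beside 23.9% and 26.9% of all tested genes. After siKDM5C 2 rose, 1 fell and 3 did not pass, beside 25.6% and 25.9% of all tested genes that rose and fell. CPQ, a secreted dipeptidase, rose from 1.33 ± 0.199 FPKM in control to 4.04 ± 0.31 in siSIRT6 and 2.22 ± 0.4 in siKDM5C (SD, n = 3). Its log2 differences were 1.12 and 0.46, with limma adjusted p-values of 4.87e-05 and 0.0055, and it was higher in siSIRT6 than in siKDM5C (0.00145). CTSA, a lysosomal serine carboxypeptidase, was at 28.4 ± 0.611 FPKM in control, 31.1 ± 0.482 in siSIRT6 and 24.0 ± 0.716 in siKDM5C. Its rise after siSIRT6 had a limma adjusted p of 0.0394, and its fall after siKDM5C one of 0.00245. The rise was lost when control replicate 1 or 2 or any siSIRT6 library was left out (0.0773 to 0.124). CTSZ, a cysteine carboxypeptidase of the lysosome, rose from 8.29 ± 0.163 to 9.49 ± 0.122 and 10.3 ± 0.471 FPKM (limma adjusted p-values 0.0145 and 0.00128), the first of which was lost without control replicate 2 (0.0545) or siSIRT6 replicate 1 (0.0551). PRCP, which cleaves behind proline, rose from 2.71 ± 0.0686 to 3.31 ± 0.131 FPKM in siSIRT6 (limma adjusted p = 0.0111), a call lost without siSIRT6 replicate 2 (0.0501).

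The list of convertases, their inhibitors and amidation holds genes that act before or after CPE and CPD in the making of peptides. Of its 4 tested genes, 3 rose after siSIRT6 and 4 after siKDM5C, beside 23.9% and 25.6% of all tested genes. FURIN, the convertase of the trans-Golgi network, rose from 29.4 ± 0.11 FPKM to 36.6 ± 0.761 in siSIRT6 and 36.8 ± 1.77 in siKDM5C (limma adjusted p-values 0.000932 and 0.000783). PAM, which amidates peptide ends, rose from 15.6 ± 1.24 to 23.6 ± 0.747 and 24.5 ± 0.999 FPKM (limma adjusted p-values 0.000152 and 9.23e-05). PCSK1N, an inhibitor of a prohormone convertase, rose from 6.00 ± 1.32 to 9.18 ± 0.523 and 10.6 ± 2.02 FPKM (limma adjusted p-values 0.0157 and 0.00418), the first of which was lost without siSIRT6 replicate 3 (0.0531). PCSK7, a further convertase, rose in siKDM5C from 2.42 ± 0.0874 to 3.13 ± 0.325 FPKM (limma adjusted p = 0.0118) and was at 2.65 ± 0.149 in siSIRT6 (0.291). PCSK1, the convertase of hormone granules, stayed at or under 0.0200 FPKM.

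Granins, the bulk proteins of secretory granules, had 3 tested members. Beside 23.9% of all tested genes in siSIRT6 and 25.6% in siKDM5C, 2 of the 3 rose in each knockdown. Both of these, SCG2 and CHGB, reached the minimum for testing only with their knockdown libraries, so the count of rises is not independent of the minimum. SCG2 rose from 0.877 ± 0.25 FPKM to 5.88 ± 0.154 in siSIRT6 and 2.05 ± 0.242 in siKDM5C (log2 differences 1.88 and 0.70, limma adjusted p-values 2.74e-06 and 0.00051). CHGB rose from 0.716 ± 0.0673 to 2.37 ± 0.0686 and 1.35 ± 0.139 FPKM (limma adjusted p-values 1.13e-05 and 0.000802). Both were higher in siSIRT6 than in siKDM5C (limma adjusted p-values 5.41e-05 and 0.000572), and CHGA had 1 read in a single library. Of the kinin genes listed with CPM, 1 of 5 was tested. That gene, MME, a cell surface endopeptidase, was under 1 FPKM in every control library and was tested only because of its knockdown libraries. MME rose from 0.564 ± 0.0468 to 1.44 ± 0.0874 and 1.71 ± 0.222 FPKM (SD, n = 3; limma adjusted p-values 0.00024 and 7.32e-05). With a pseudocount of 0.1 the log2 differences from control in siSIRT6 and siKDM5C were 1.60 and 0.83 for CHGB (0.98 and 0.45 with 1), 2.64 and 1.16 for SCG2, and 1.22 and 1.44 for MME (0.64 and 0.79 with 1). The bradykinin receptor genes BDKRB1 and BDKRB2 stayed at or under 0.0237 FPKM.

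**Figure D4:**
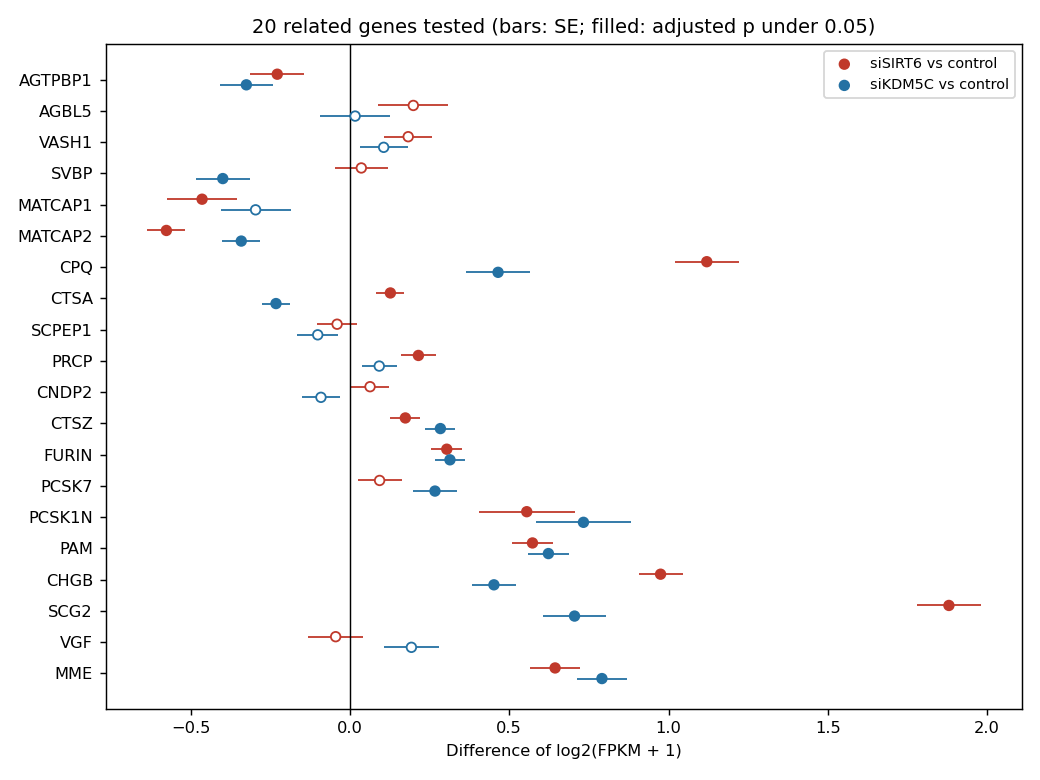
Differences of log2(FPKM + 1) with their SE for the 20 tested related genes in the order of their lists, in siSIRT6 and siKDM5C against control; filled points passed limma with an adjusted p under 0.05 and open points did not. In siSIRT6, SCG2, CPQ and CHGB are at 1.88, 1.12 and 0.98 with the pseudocount of 1, and at 2.64, 1.54 and 1.60 with one of 0.1.

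Of 15 annotated genes with values within 200 kilobases of CPA4, 7 were tested, and 2 rose after siSIRT6 and 3 after siKDM5C by limma, beside 23.9% and 25.6% of all tested genes. KLHDC10, which lies 157414 bases away, rose from 4.95 ± 0.747 FPKM to 8.63 ± 0.633 in siSIRT6 and 8.05 ± 0.863 in siKDM5C (SD, n = 3; limma adjusted p-values 0.000769 and 0.00162). COPG2, a coatomer subunit at 182058 bases, rose from 4.49 ± 0.177 to 7.00 ± 0.119 FPKM in siSIRT6 (limma adjusted p = 5.54e-05). MEST, an imprinted gene at 161991 bases, was at 3.46 ± 0.106 FPKM in control and 3.19 ± 0.24 in siSIRT6 and rose to 5.04 ± 0.532 in siKDM5C (limma adjusted p = 0.00142).

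GFM1, a mitochondrial elongation factor whose gene encloses LXN, fell in both knockdowns, whereas latexin was above control in siSIRT6 and below it in siKDM5C. It went from 7.16 ± 0.0954 FPKM in control to 4.07 ± 0.191 in siSIRT6 and 5.05 ± 0.375 in siKDM5C (SD, n = 3; limma adjusted p-values 3.17e-05 and 0.000411). MFSD1, at 59505 bases from LXN, rose from 7.21 ± 0.101 to 9.31 ± 0.337 FPKM in siSIRT6 (limma adjusted p = 0.00524) and was at 6.69 ± 0.738 in siKDM5C. MLF1, at 38570 bases, was at 8.44 ± 0.608 in control and 9.18 ± 0.338 in siSIRT6 and fell to 6.75 ± 0.319 in siKDM5C (limma adjusted p = 0.00494).

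GOSR1, a Golgi SNARE gene that lies 7373 bases from CPD, fell from 5.85 ± 0.195 FPKM to 3.84 ± 0.102 in siSIRT6 and 2.80 ± 0.145 in siKDM5C (SD, n = 3; limma adjusted p-values 9.24e-05 and 5.16e-06). Its direction in siSIRT6 was thus the opposite of that of CPD, and in siKDM5C the same. MSMO1, which was the gene most like CPD in pattern, is also the nearest tested neighbour of CPE, 18034 bases away. It rose after siSIRT6 and fell after siKDM5C (limma adjusted p-values 0.016 and 6.09e-05). Around CPM, 5 of 6 tested genes fell in each knockdown by limma, beside 26.9% and 25.9% of all tested genes. The sets were not the same: RAP1B fell only in siKDM5C (limma adjusted p = 0.664 in siSIRT6) and NUP107-DT only in siSIRT6 (0.415 in siKDM5C). Of the 6 tested genes, MDM2, a pseudogene and a gene annotated as antisense overlap CPM itself. The gene annotated as antisense lies on the same strand as CPM. MDM2, the ubiquitin ligase of p53, fell from 9.91 ± 1.41 to 6.46 ± 0.177 and 6.65 ± 1.35 FPKM (limma adjusted p-values 0.00828 and 0.00996). NUP107, a nuclear pore subunit, fell from 8.92 ± 0.252 to 3.23 ± 0.239 FPKM in siSIRT6 and 7.60 ± 0.491 in siKDM5C (limma adjusted p-values 2.28e-06 and 0.0233).

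**Figure D5:**
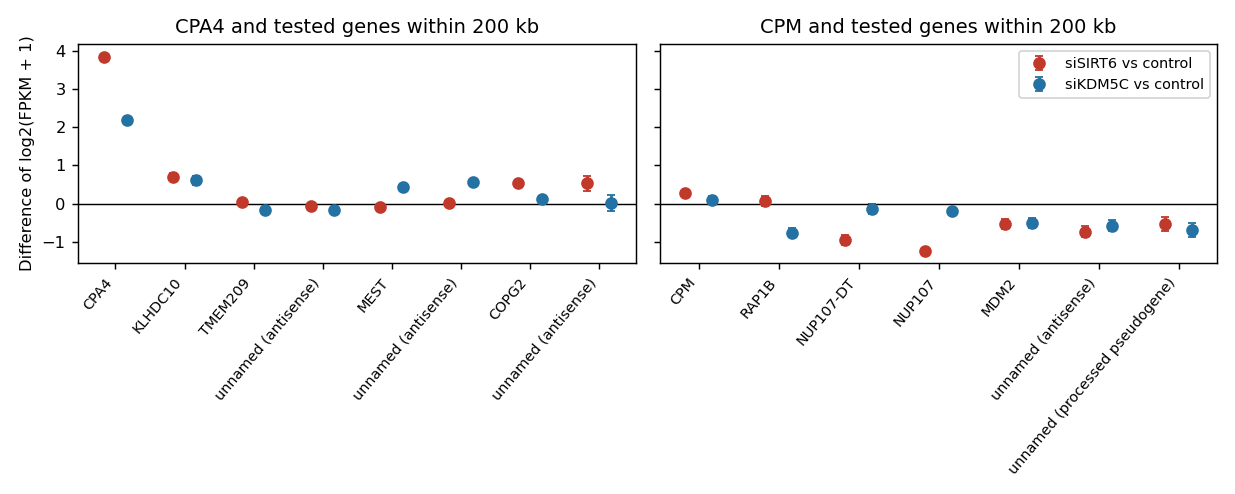
Log2 differences in siSIRT6 and siKDM5C against control of CPA4 (left) and CPM (right), each first in its panel and followed by the tested genes within 200 kilobases; bars are SE, and genes with clone names are shown as unnamed. CPA4, which was chosen for its rise in siSIRT6, is at 3.84 and 2.18, and KLHDC10 at 0.70 and 0.61.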

How the data were processed

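RNA of 9 PANC-1 libraries was sequenced after preparation with a stranded mRNA kit, per the labels' protocols. Trimmomatic, HISAT2, Cufflinks, HTSeq and the hg38 build are named in the submitters' processing notes, without versions; the annotation behind the values is not given in the sources used, nor is the strand of counting. The authors deposited 1 FPKM value per gene and library for 36753 Ensembl identifiers. Names came from a gene table that held 36659 of them, and coordinates from GENCODE release 29.

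Low FPKM values were whole multiples of 1 read, and whole reads were recovered for 100% of genes (tolerance 0.01), 58.93% of them with the union of annotated exons as length. They served for depths and for 1 alternative fit.

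The 16135 genes that reached 1 FPKM in 3 or more libraries were tested as log2(FPKM + 1) with limma 3.58.1 (R 4.3.3, trend), in a fit of all 9 libraries with 6 residual degrees of freedom and a two-sided Benjamini-Hochberg threshold of 0.05. The code was tested on simulated data. Alternatives were a pseudocount of 0.1, no minimum, a minimum of 5 FPKM, only the groups compared, median-of-ratios scaling, voom, a replicate block and leaving out each library.

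The members, lists and rules were chosen with earlier results of these data known. Genes named were the members, SIRT6 and KDM5C, related genes by count or name, genes within 200 kilobases of a member and the 5 genes with the highest Pearson's r to each member. Genes with clone names were counted but not named, and a few others covered by the rule are not reported here. Promoters came from RefSeq, and all 5 members matched. Replicates differed by more than counting noise (chi-square per degree of freedom 1.93 to 16.3), so none was counted as a duplicate.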

Additional observations from a re-analysis of the deposited data

How the results depend on the processing

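With a minimum of 5 FPKM, which leaves 9446 genes, the genes past the threshold numbered 5367 in place of 8194 (siSIRT6 against control) and 5418 in place of 8308 (siKDM5C against control), and the related genes 7, 8 and 3 in place of 13, 13 and 6 in the 3 comparisons. Leaving out 1 library at a time gave 6698 to 8767, 6873 to 8324 and 4820 to 6873 genes, and 10 to 13, 13 to 14 and 5 to 8 related genes. With the replicate number as a block, 8130, 8245 and 6386 genes and 12, 13 and 6 related genes passed, and the CTSA rise after siSIRT6 was lost (adjusted p = 0.0596). The numbers gave little sign of pairing: over 9 same-number pairs the correlation of deviations was -0.229 to 0.252, over 0.1 in 1 pair, and 4 of 9 libraries correlated best with their own number. Alternatives were also followed for each related gene that passed in at least 1 comparison. Of these values, 670 stayed on the same side of the threshold, 23 lost their call, 6 gained one and none reversed. The 670 include values that passed in neither setting, and genes left out by a setting's minimum were not counted. The AGTPBP1 fall after siSIRT6 was also lost with no minimum (adjusted p = 0.0998), with a minimum of 5 FPKM (0.0503) and with median-of-ratios scaling (0.0767), and the MATCAP1 difference after siKDM5C passed with voom (0.0367). Log2 differences from control by voom were 4.74 and 2.98 for CPA4, and that of CPD in siKDM5C was -1.02. Depth limits CPE, at 9 to 35 reads per library, and the control level of CPA4, at 60 to 101.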
